A study of Mus musculus with 11 samples.

Results

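The genes described here encode 4 bone morphogenetic protein (BMP) ligands (Bmp2, Bmp4, Bmp5 and Bmp6), 2 BMP receptors (Bmpr1a and Bmpr2) and the 4 Id proteins (Id1, Id2, Id3 and Id4). They were taken as every probe set of the array annotated with one of these 10 symbols alone, which gave 23 of the 45037 probe sets that are not manufacturer controls: 6 for the ligands, 9 for the receptors and 8 for the Id genes. The study measured RNA from cells of Pax3GFP/+ mice on a C57BL/6J background, in which one Pax3 allele carries green fluorescent protein (GFP), at postnatal day 1 (P1), day 12 (P12) and day 28 (P28). Living GFP cells were sorted from digested muscle and hybridised to Affymetrix Mouse430_2 arrays, with 4 arrays at P1, 4 at P12 and 3 at P28. Per the labels, the P1 and P12 cells came from trunk muscles that included proliferating satellite cells, and the P28 cells came from abdominal, pectoral and intercostal muscle. All groups carried the same genotype, so no Pax3 wild-type cells were compared, and the sort took all GFP cells, not satellite cells alone. The P28 arrays also carry another suffix in their internal names, so age, muscle and a possible batch cannot be told apart in any comparison with P28. The labels call the arrays biological replicates without giving the animals behind each, so p-values measure only the spread between arrays, which may be technical in part.

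BMPs are secreted ligands that bring together type I receptors such as Bmpr1a and the type II receptor Bmpr2, whereupon Smad1, Smad5 and Smad9 are phosphorylated and enter the nucleus with Smad4. The Id genes are direct targets of these Smads in many cell types. Id proteins have a helix-loop-helix but no DNA-binding region, and by pairing with E proteins such as Tcf3 and Tcf12 they keep Myod1 and its relatives from binding DNA; in muscle precursors BMP signalling is known for favouring growth over differentiation. Satellite cells, the stem cells of muscle, divide in the first postnatal weeks and later become quiescent.

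Values are log2 expression per probe set as the authors normalised them, so 1 unit is a doubling, and levels of different probe sets are not set against each other. Array medians lay between 5.50 and 5.58. The satellite cell marker Pax7 averaged 10.75 ± 0.33 at P1, 10.78 ± 0.23 at P12 and 10.72 ± 0.18 at P28 (SD over arrays). The proliferation marker Mki67 averaged 11.42 ± 0.28, 12.34 ± 0.37 and 11.01 ± 0.27 at the same ages, and its fall at P28 against P12 passed the test (log2 change -1.33 ± 0.21 SE, adjusted p = 0.000326, limma). Ccnd1, also taken as a proliferation marker, did not fall and averaged 9.55 ± 0.29, 11.20 ± 0.44 and 11.28 ± 0.15. Its log2 change was 0.08 ± 0.22 in P28 against P12 (adjusted p = 0.821) and 1.73 ± 0.22 in P28 against P1 (adjusted p = 3.88e-05). Markers of other cell types, as the log2 of each list's summed signal, were higher at P28: the endothelial list lay at 11.68 to 12.35 on the P28 arrays against 10.08 to 10.63 at P12, the neutrophil list at 13.35 to 14.73 against 8.56 to 9.38, and the macrophage list at 11.59 to 12.62 against 10.14 to 10.50. Called higher in that comparison were 10 of 12 endothelial, 7 of 7 neutrophil, 5 of 10 macrophage and 6 of 9 fibro-adipogenic markers, although the gate was on GFP. The share over all genes, with 1 probe set each, was 15.5%. Also called higher were 6 of 8 pericyte and smooth muscle, 4 of 6 mast cell, 3 of 4 erythroid and 3 of 11 myogenic markers. Of the 8 Schwann cell and melanocyte markers 0 were called higher and 1 lower. The macrophage count was 8 without P28 replicate 1 and 8 with the replicate block. The erythroid list lay at 10.28 to 12.56 at P28 against 7.52 to 8.26 at P12, pericytes and smooth muscle at 11.68 to 12.12 against 10.09 to 10.79, the myogenic list at 14.09 to 14.34 against 13.62 to 13.97, and Schwann cells and melanocytes, with Dct, Tyr, Tyrp1 and Mlana dim at every age, at 8.28 to 8.45 against 8.38 to 8.50. No gene of the endothelial, neutrophil, macrophage and fibro-adipogenic lists was dim at every age, dim meaning a mean at or below 4.96, which is 1 above the highest bacterial control value. In sorted bulk RNA, fewer cells of a type and less RNA per cell cannot be told apart. The control probe sets for the 3' and 5' ends of Gapdh, whose difference is a sign of RNA quality, differed by 0.79 to 0.99 on the P28 arrays, by 1.32 to 3.05 at P12 and by 1.62 to 2.79 at P1. Replicates 1 and 2 of both P1 and P12 (2.59 to 3.05) stood apart from replicates 3 and 4 (1.32 to 1.69).

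**Figure D1:**
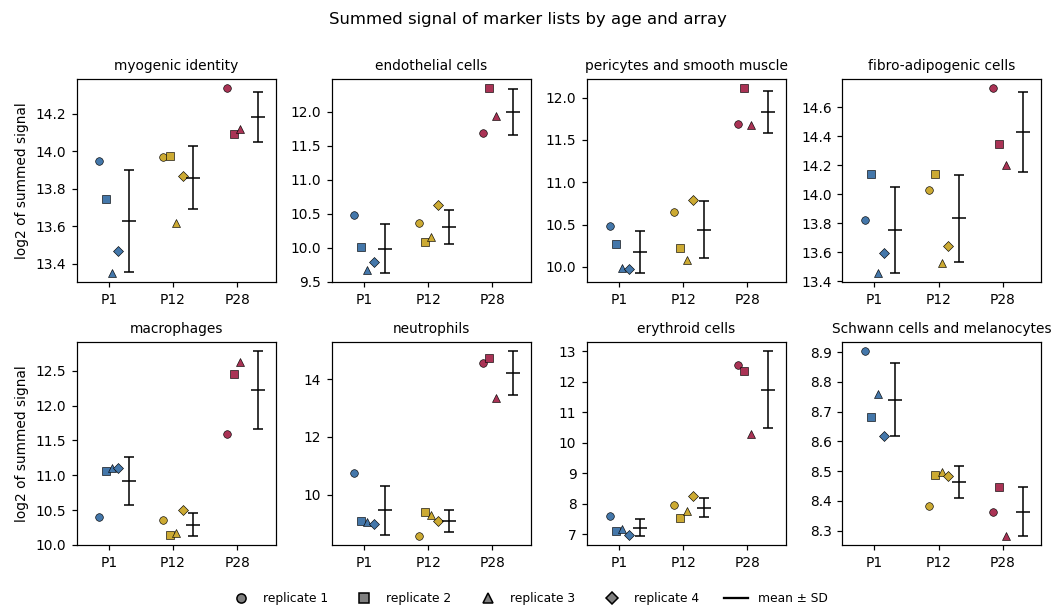
Log2 of the summed signal of cell type marker lists, 1 panel per list, with 1 point per array at P1, P12 and P28, marker shapes for replicate numbers and bars for mean ± SD. The endothelial panel shows the 3 P28 arrays at 11.68 to 12.35, above all P12 arrays.

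Most of the ligand and Id probe sets were higher at P28 than at either younger age, while the 2 receptors gave mixed changes. Between P12 and P1 few probe sets passed the test, although all 8 Id probe sets had a positive log2 change. Rises and falls are those with an adjusted p under 0.05 in limma, with the Benjamini-Hochberg adjustment over all 45037 probe sets. In P28 against P12, 12 of the 23 probe sets rose and 3 fell, where 13.5% and 15.9% of all probe sets were called higher and lower (29.4% in either direction). Their median log2 change was 0.57, against -0.05 over all probe sets. In P28 against P1, 14 rose and 3 fell, with 17.6% and 17.4% of all probe sets called (35.0% in either direction), and the median was 0.83 against -0.05. In P12 against P1, 1 rose and 1 fell, with 3.25% and 1.59% of all probe sets called (4.84% in either direction), and the median was 0.10 against 0.01. Of all P12 against P1 calls 67.1% were higher, and 51.8% after further quantile normalisation. Groups of arrays that did not overlap were found for 11 higher and 3 lower probe sets in P28 against P12 (15.4% and 19.9% of all probe sets), for 14 and 4 in P28 against P1 (19.3% and 21.4%), and for 1 and 2 in P12 against P1 (6.18% and 4.16%). Over the 3 ages 17 of the 23 passed the moderated F test, as did 36.3% of all probe sets. A dim mean at every age was found for 3 probe sets, 1 each of Bmpr1a, Bmpr2 and Id2, and none of these passed any of the tests.

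**Figure D2:**
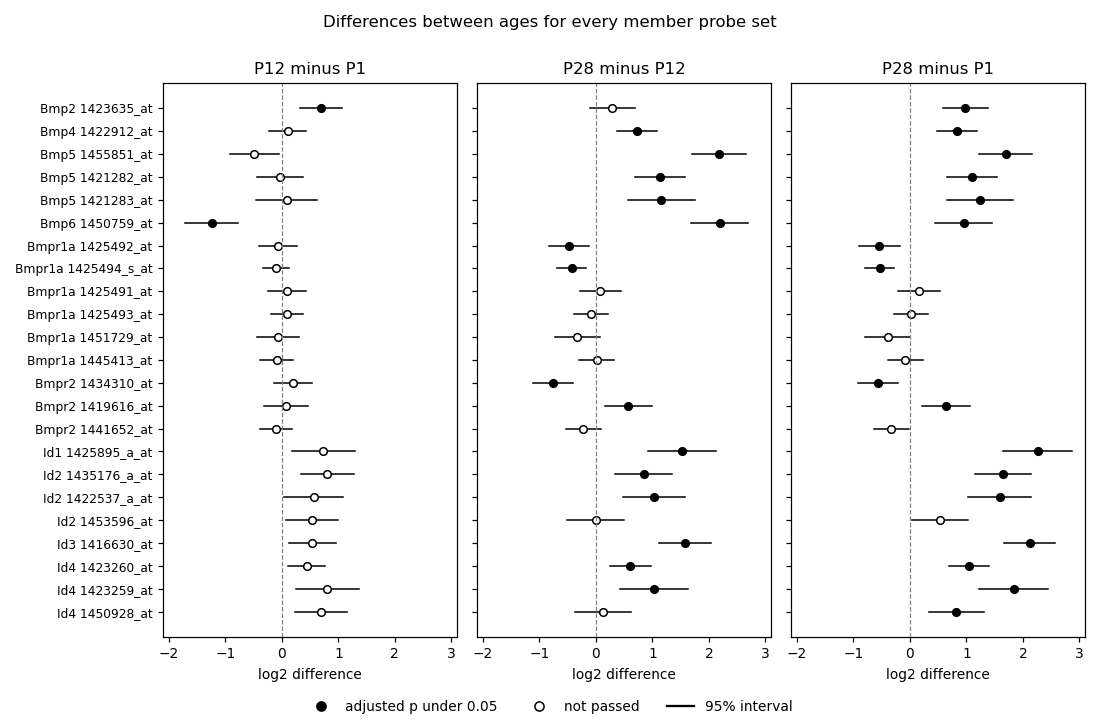
Log2 change of each of the 23 probe sets between each pair of ages (3 panels), with the 95% interval from the fit as a line and a filled point where the adjusted p was under 0.05. The ligand and Id points lie mostly right of 0 in both comparisons with P28, and the receptor points lie on both sides.

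Among the ligands, Bmp5 and Bmp6 had the largest differences, and both stood highest at P28. Bmp5 is a ligand of the Bmp5, Bmp6 and Bmp7 subgroup, and the brightest of its 3 probe sets, 1455851_at, read 5.99, 6.09, 6.26 and 5.87 on the P1 arrays. The P12 arrays read 5.55, 5.42, 5.47 and 5.83. The P28 arrays read 8.43, 7.31 and 7.49. All P28 values lay above all others, and the P12 values lay below the P1 values without overlap, by a margin smaller than the spread within either group. In P28 against P12 the probe set rose by 2.18 ± 0.22 on the log2 scale (SE, adjusted p = 1.01e-05), 4.53 times the P12 level, and in P28 against P1 by 1.69 ± 0.22 (adjusted p = 5.25e-05). P12 against P1 gave -0.49 ± 0.20 and did not pass (adjusted p = 0.209), although it passed with the array set, replicates 1 and 2 or 3 and 4, as a block (adjusted p = 0.0351). The other Bmp5 probe sets were also called higher at P28, but their means at P12 (4.44 and 4.31) and P1 (4.47 and 4.23) lay under the dim level of 4.96, so the sizes of these changes are not measured. Probe set 1421282_at read 6.05, 5.18 and 5.50 at P28, against 4.27 to 4.70 at P12 and 4.16 to 4.81 at P1, and passed over P12 (adjusted p = 0.000998). Probe set 1421283_at read 6.26, 5.09 and 5.05 at P28, against 3.97 to 4.75 at P12 and 3.86 to 4.42 at P1, and passed over P12 (adjusted p = 0.00598). P28 replicate 1 was the highest array for all 3, so the Bmp5 probe sets also shared their spread within P28. With the Gapdh difference as a covariate 1421283_at no longer passed over P12 (adjusted p = 0.0814) or P1 (adjusted p = 0.0589).

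Bmp6, a ligand also known for its part in iron regulation in the liver, was the only member that passed the test in all 3 comparisons. Its probe set 1450759_at read 9.18, 8.48, 8.10 and 8.20 at P1. At P12 it read 7.31, 7.30, 7.25 and 7.14. At P28 it read 9.92, 9.18 and 9.22. P12 lay below both other ages without overlap, and P28 and P1 met at 9.18. Bmp6 fell in P12 against P1 by 1.24 on the log2 scale (SE 0.22, adjusted p = 0.00613), to 0.423 times the P1 level. It rose in P28 against P12 by 2.19 ± 0.24 (adjusted p = 1.69e-05), 4.56 times the P12 level, and in P28 against P1 by 0.95 ± 0.24 (adjusted p = 0.0064). Within replicates 1 and 2 the change in P12 against P1 was -1.52 (adjusted p = 0.0200), and within replicates 3 and 4 it was -0.96 and did not pass (adjusted p = 0.0801).

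Markers of some other cell types were read beside these ligands, and not all had the course of Bmp5 and Bmp6. Pdgfra, a receptor that marks fibro-adipogenic cells and that was singled out after its values were seen, averaged 7.92 ± 0.17 at P1, 6.47 ± 0.27 at P12 and 8.39 ± 0.94 at P28. Its log2 change was -1.45 ± 0.29 in P12 against P1 (adjusted p = 0.0128) and 1.91 ± 0.31 in P28 against P12 (adjusted p = 0.000463). The summed fibro-adipogenic list lay at 13.46 to 14.14 at P1, 13.52 to 14.14 at P12 and 14.20 to 14.73 at P28, and its brightest genes, the collagens Col1a1 and Col3a1, did not pass in any comparison. The macrophage list lay at 10.40 to 11.11 at P1, overlapping its P12 range of 10.14 to 10.50. The mast cell list lay at 8.21 to 8.86 at P1, 7.40 to 7.55 at P12 and 7.74 to 8.25 at P28. Its genes Kit and Fcer1a were dim at every age. Called lower in P12 against P1 were 2 of 9 fibro-adipogenic, 1 of 10 macrophage and 2 of 6 mast cell markers, and 1.85% of all genes. The part of these markers in the Bmp5 and Bmp6 values was not tested.

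Bmp2 and Bmp4 are the closely related ligands of the other subgroup. Bmp2 (1423635_at) read 6.45, 6.01, 6.30 and 6.33 at P1, 6.74, 7.25, 7.18 and 6.71 at P12, and 7.23, 6.93 and 7.62 at P28. All P12 and P28 arrays lay above all P1 arrays, and P28 overlapped P12. Bmp2 was the only member to rise in P12 against P1, by 0.69 ± 0.17 (95% interval 0.32 to 1.07, adjusted p = 0.0347), 1.62 times the P1 level, and P28 against P12 gave 0.29 ± 0.19 (adjusted p = 0.278). That call was lost when one of P1 replicates 2, 3 and 4 was left out, likewise P12 replicate 2 or 3 (log2 changes 0.60 to 0.71), and within replicates 1 and 2 (0.76, adjusted p = 0.211) and replicates 3 and 4 (0.63, adjusted p = 0.217), where fewer arrays entered. In P28 against P1 Bmp2 rose by 0.98 ± 0.19 (adjusted p = 0.00105).

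Bmp4 (1422912_at) read 9.55, 9.52, 9.39 and 9.49 at P1, 9.36, 9.40, 9.53 and 10.06 at P12, and 10.45, 10.40 and 10.10 at P28. The P28 arrays lay above all others, the closest being P12 replicate 4 at 10.06. In P28 against P12 Bmp4 rose by 0.73 ± 0.16 (adjusted p = 0.00418), and in P28 against P1 by 0.83 ± 0.16 (adjusted p = 0.00134), 1.78 times the P1 level. P12 against P1 gave 0.10 with a 95% interval of -0.22 to 0.43 (adjusted p = 0.802). With the Gapdh difference as a covariate the P28 against P12 value was 0.57 and did not pass (adjusted p = 0.0711). Over the 4 ligands, 5 of 6 probe sets thus rose in P28 against P12 with a median of 1.14, and 6 of 6 in P28 against P1 with a median of 1.04. These medians include the 2 Bmp5 probe sets that were dim at the younger ages. Of all probe sets 13.5% and 17.6% were called higher in these comparisons, with a median of -0.05 in each.

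**Figure D3:**
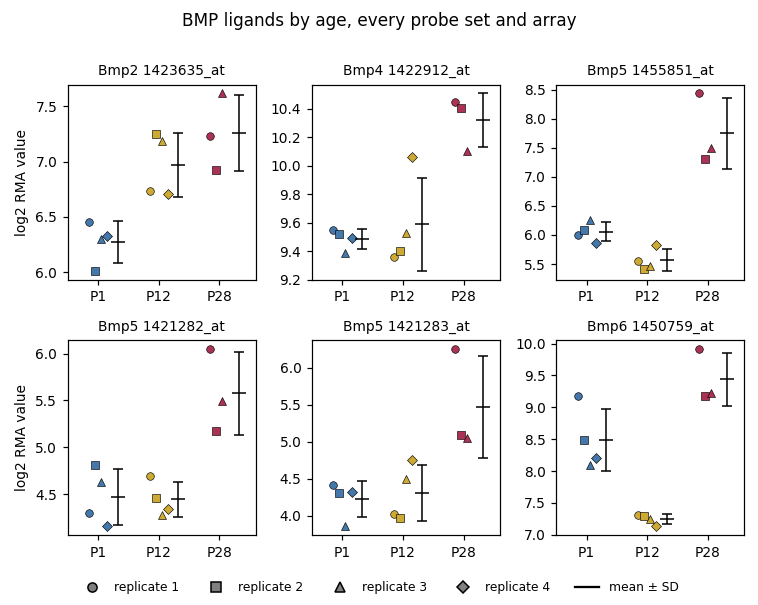
Log2 expression of the 6 ligand probe sets, 1 panel each, with 1 point per array at P1, P12 and P28, marker shapes for replicate numbers and bars for mean ± SD. Bmp6 shows P12 values of 7.14 to 7.31 below both other ages, and the 3 Bmp5 panels share a high P28 replicate 1.

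The sequence around the transcription start is shown for Bmp5 and Bmp6, the ligands with the largest differences, as the 250 bases before and 50 bases from the start, 5′ to 3′ on the gene's strand, from RefSeq (GRCm38.p6). Capitals mark the Smad-binding letters GTCT on either strand (AGAC on the strand printed) and GGCGCC. Bmp5 lies at chr9:75775115-75775414 on the plus strand and Bmp6 at chr13:38345466-38345765 on the plus strand.
Bmp5: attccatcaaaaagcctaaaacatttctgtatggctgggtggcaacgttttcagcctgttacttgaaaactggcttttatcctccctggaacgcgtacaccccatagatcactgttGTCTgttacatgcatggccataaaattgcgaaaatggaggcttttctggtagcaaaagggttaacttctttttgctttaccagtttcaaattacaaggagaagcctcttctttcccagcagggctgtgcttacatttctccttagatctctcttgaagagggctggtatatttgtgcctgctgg
Bmp6: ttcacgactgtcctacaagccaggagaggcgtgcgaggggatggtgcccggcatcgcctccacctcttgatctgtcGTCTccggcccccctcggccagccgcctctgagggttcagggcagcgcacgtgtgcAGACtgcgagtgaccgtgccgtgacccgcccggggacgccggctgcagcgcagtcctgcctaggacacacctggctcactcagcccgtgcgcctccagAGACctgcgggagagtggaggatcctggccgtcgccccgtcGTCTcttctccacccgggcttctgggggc
The Bmp5 window held 43.3% G and C and the Bmp6 window 69.3%, where the median of 27025 promoters was 52.7%. GTCT was found at 1 place in Bmp5 and at 4 in Bmp6, and 88.0% of all promoters of this length hold it at least once. GGCGCC, which 12.0% of promoters hold, was in neither window. These matches describe letters only.

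The probe sets of each receptor gene disagreed. Bmpr1a, a type I receptor with a kinase, has 6 probe sets, of which 2 fell at P28. Probe set 1425494_s_at read 9.23, 9.28, 9.11 and 9.07 at P1, 9.04, 9.27, 9.05 and 8.93 at P12, and 8.67, 8.60 and 8.64 at P28. Probe set 1425492_at read 9.55, 9.55, 9.07 and 9.10 at P1, 9.18, 9.55, 9.22 and 9.06 at P12, and 8.83, 8.55 and 8.96 at P28. On both, all P28 arrays lay below all younger arrays. The first fell in P28 against P12 by 0.43 (SE 0.12, adjusted p = 0.0135) and in P28 against P1 by 0.54 (SE 0.12, adjusted p = 0.00286), and the second by 0.48 (SE 0.17, adjusted p = 0.047) and 0.54 (SE 0.17, adjusted p = 0.0219). Probe sets 1425491_at and 1425493_at, by contrast, gave 0.08 (95% interval -0.29 to 0.44) and -0.08 (-0.38 to 0.22) in P28 against P12. The P28 arrays of 1425491_at read 8.96, 8.54 and 8.67, inside the range of the younger arrays, 8.35 to 8.90, but for replicate 1. Probe set 1451729_at gave -0.33 (adjusted p = 0.213), and the dim 1445413_at gave 0.01 (adjusted p = 0.96). Where each probe set lies on the transcript was not used here, so which part of Bmpr1a RNA each reads is not given.

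Bmpr2, the type II receptor for BMPs, had 1 probe set that fell and 1 that rose. Probe set 1434310_at read 10.68, 10.74, 10.36 and 10.42 at P1, 10.78, 11.07, 10.64 and 10.49 at P12, and 10.25, 9.74 and 9.97 at P28, with all P28 arrays lowest. It fell in P28 against P12 by 0.76 (SE 0.17, adjusted p = 0.00373), to 0.59 times the P12 level, and in P28 against P1 by 0.56 (SE 0.17, adjusted p = 0.0177). Probe set 1419616_at read 7.48, 7.59, 8.16 and 8.02 at P1, 7.76, 7.71, 7.74 and 8.30 at P12, and 8.34, 8.29 and 8.73 at P28. P28 replicate 2 lay just below P12 replicate 4, so those groups overlapped. It rose in P28 against P12 by 0.57 ± 0.20 (adjusted p = 0.0409) and in P28 against P1 by 0.64 ± 0.20 (adjusted p = 0.021). The dim 1441652_at gave -0.22 in P28 against P12 (adjusted p = 0.278). The opposite signs came from the same arrays, and no level of the whole gene was drawn from them.

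No receptor call held under all alternatives run. With the Gapdh 3' minus 5' difference as a covariate, none of the 4 called probe sets of Bmpr1a and Bmpr2 passed in P28 against P12: 1425492_at gave -0.17 (adjusted p = 0.559), 1425494_s_at gave -0.27 (adjusted p = 0.189), 1434310_at gave -0.42 (adjusted p = 0.0966) and 1419616_at gave 0.22 (adjusted p = 0.527). In P28 against P1 none passed with it either, at -0.22, -0.36, -0.21 and 0.26 (adjusted p = 0.423, 0.0712, 0.423 and 0.422). This covariate is lowest on all P28 arrays, so for P28 its part and that of age cannot be told apart. Further quantile normalisation also ended both 1419616_at calls (0.51 over P12, adjusted p = 0.0737, and 0.45 over P1, adjusted p = 0.102). Leaving out any 1 P28 array, or P12 replicate 1, 2 or 3, ended its P28 against P12 call (0.44 to 0.65). That of 1425492_at ended without P1 replicate 4, P12 replicate 1, 2 or 3, or P28 replicate 1 or 2 (-0.50 to -0.36). In P28 against P1, leaving out P1 replicate 2 or P28 replicate 2 ended the calls of 1425492_at (-0.46 and -0.43) and 1434310_at (-0.50 and -0.44), and leaving out P1 replicate 1 ended that of 1425492_at (-0.47). The 1419616_at call in that comparison ended without P1 replicate 1 or 2 or P28 replicate 3 (0.50 to 0.56). Between P12 and P1 no receptor probe set passed, with log2 changes of -0.11 to 0.20.

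**Figure D4:**
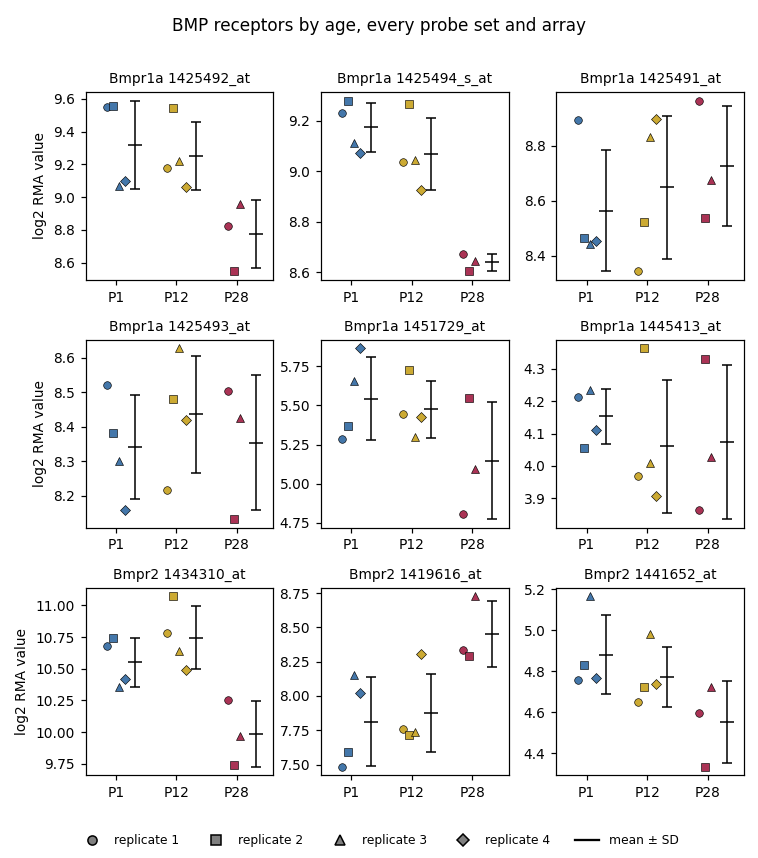
Log2 expression of the 9 receptor probe sets, 1 panel each, with 1 point per array at P1, P12 and P28, marker shapes for replicate numbers and bars for mean ± SD. Panels of the same gene differ: Bmpr2 1434310_at lies lowest at P28 (9.74 to 10.25) and 1419616_at highest on average (8.29 to 8.73).

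The 4 Id genes all rose at P28, each by at least 1 probe set in both comparisons. Id3 read 10.57, 9.90, 9.77 and 9.82 at P1, 10.55, 10.27, 10.34 and 11.06 at P12, and 12.04, 12.24 and 12.12 at P28 on its only probe set, 1416630_at. The P28 arrays lay close together and above every younger array, while P12 and P1 overlapped through P1 replicate 1. Id3 rose in P28 against P12 by 1.58 ± 0.21 (95% interval 1.12 to 2.03, adjusted p = 9.75e-05), 2.98 times the P12 level. In P28 against P1 it rose by 2.12 ± 0.21 (adjusted p = 5.09e-06), 4.34 times the P1 level.

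Id1, like Id3 a classic readout of BMP signalling, had 1 probe set, 1425895_a_at. It read 7.27, 6.37, 6.37 and 6.71 at P1, 7.05, 7.02, 7.29 and 8.29 at P12, and 8.79, 8.93 and 9.10 at P28. P28 lay above all other arrays, with P12 replicate 4 at 8.29 the nearest and apart from the other P12 arrays. Id1 rose in P28 against P12 by 1.53 ± 0.28 (95% interval 0.92 to 2.13, adjusted p = 0.00115) and in P28 against P1 by 2.26 ± 0.28 (adjusted p = 3.82e-05), 4.79 times the P1 level. Across the 11 arrays the Id1 and Id3 profiles, each centred on its own mean, differed by 0.216 (root mean square), and among 15737 genes searched Id3 was the nearest to Id1. Id1 was not the nearest to Id3, since Clu (0.172), Osgin1 (0.196) and Mgarp (0.200) lay nearer. The likeness of Id1 and Id3 is a description over arrays that share their age and, at P28, their muscles.

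Id2, which besides BMP answers to several other signals, had 3 probe sets. The brightest, 1435176_a_at, read 8.65, 8.11, 7.54 and 7.69 at P1, 9.04, 8.87, 8.53 and 8.76 at P12, and 9.40, 9.54 and 9.99 at P28. Probe set 1422537_a_at read 6.81, 6.44, 6.03 and 5.83 at P1, 6.93, 6.31, 6.75 and 7.35 at P12, and 7.48, 8.02 and 8.10 at P28. Both had all P28 arrays above all P12 arrays, and both had P1 replicate 1 as the highest P1 array. They rose in P28 against P12 by 0.84 ± 0.23 (adjusted p = 0.015) and 1.03 ± 0.26 (adjusted p = 0.00836), and in P28 against P1 by 1.65 ± 0.23 (adjusted p = 0.000113) and 1.59 ± 0.26 (adjusted p = 0.000318). The first call over P12 was lost without P28 replicate 3 (0.67, adjusted p = 0.072) and the second with the Gapdh covariate (0.99, adjusted p = 0.0644). The dim 1453596_at gave -0.01 in P28 against P12 (adjusted p = 0.988) and 0.53 in P28 against P1 (adjusted p = 0.0947).

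Id4, known mainly from neural precursors and the reproductive tract, had 3 probe sets that differed in their course. Probe set 1423260_at read 8.21, 7.89, 8.15 and 7.95 at P1, 8.16, 8.86, 8.31 and 8.62 at P12, and 9.07, 8.95 and 9.27 at P28. Probe set 1423259_at read 7.01, 6.55, 5.67 and 5.77 at P1, 7.00, 7.18, 6.99 and 7.07 at P12, and 7.92, 7.75 and 8.59 at P28. Probe set 1450928_at read 6.37, 6.09, 5.57 and 5.86 at P1, 7.20, 6.78, 6.23 and 6.44 at P12, and 6.73, 6.59 and 7.08 at P28. The first and second stood highest on all P28 arrays, while the third had its P28 arrays inside the P12 range. In P28 against P12 the first rose by 0.61 ± 0.17 (adjusted p = 0.0135) and the second by 1.03 ± 0.28 (adjusted p = 0.0139), and the third gave 0.13 (95% interval -0.36 to 0.63, adjusted p = 0.714). All 3 rose in P28 against P1, by 1.05 ± 0.17 (adjusted p = 0.000268), 1.83 ± 0.28 (adjusted p = 0.00021) and 0.82 ± 0.23 (adjusted p = 0.0129). Without P28 replicate 3 the calls over P12 were lost for 1423260_at (0.52, adjusted p = 0.0591) and 1423259_at (0.78, adjusted p = 0.071), and the call over P1 for 1450928_at (0.68, adjusted p = 0.0613).

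**Figure D5:**
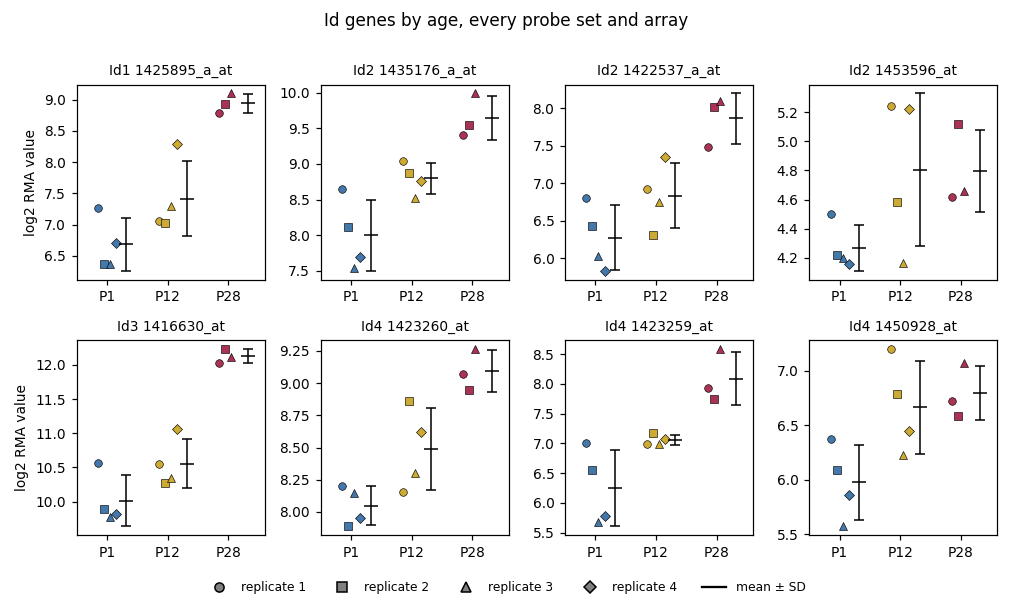
Log2 expression of the 8 Id probe sets, 1 panel each, with 1 point per array at P1, P12 and P28, marker shapes for replicate numbers and bars for mean ± SD. Id1 and Id3 show the 3 P28 arrays close together (8.79 to 9.10 and 12.04 to 12.24) above all younger arrays.

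Between P12 and P1 no Id probe set passed, although all 8 had a positive log2 change, from 0.44 to 0.80 with a median of 0.63. Closest to the threshold was Id2 1435176_a_at at 0.80 ± 0.22 (95% interval 0.34 to 1.27, adjusted p = 0.0501), and Id1 gave 0.73 ± 0.26 (adjusted p = 0.137) and Id3 0.54 ± 0.19 (adjusted p = 0.14). With the array set as a block, Id2 1435176_a_at (adjusted p = 0.00673), Id4 1423259_at (adjusted p = 0.0217) and Id4 1450928_at (adjusted p = 0.00866) passed. Id2 1435176_a_at also passed with median centring, trend and robust variance, array weights, only those ages and the Gapdh covariate, with adjusted p between 0.0125 and 0.0473. It did not pass with further quantile normalisation or with the replicate block. These values moved with 1 array, since P1 replicate 1 was the highest P1 array in 7 of the 7 Id probe sets that were not dim. Without it Id2 1435176_a_at gave 1.02 (adjusted p = 0.00716), Id3 0.73 (adjusted p = 0.0292), Id4 1423259_at 1.06 (adjusted p = 0.0176) and Id4 1450928_at 0.82 (adjusted p = 0.0475). The difference also ran unevenly over the array sets: Id1 gave 0.21 within replicates 1 and 2 and 1.25 within replicates 3 and 4, Id3 gave 0.18 and 0.90, and Id2 1422537_a_at gave 0.00 and 1.12, of which none passed. Id2 1435176_a_at gave 0.58 and 1.03 and Id4 1423259_at 0.30 and 1.30, and both passed within replicates 3 and 4 (adjusted p = 0.0378 and 0.0253). P1 replicate 1 also had the highest endothelial sum of the P1 arrays (10.48, against 9.68 to 10.01 on the others), the highest neutrophil sum (10.73 against 8.99 to 9.07) and an Xist level of 11.29 against 5.82 to 5.96, where all P12 and P28 arrays read 10.59 or more. Xist was thus low on P1 replicates 2, 3 and 4 alone, so what sets its level runs partly along with age in both comparisons with P1. Once P1 replicate 1 is left out it runs fully along with age there, and the 2 cannot be told apart. P12 replicate 4, which had the highest endothelial sum of the P12 arrays at 10.63, was the highest P12 array in 3 of these 7 probe sets, and replicates 1 and 2 were the highest in 2 each. The part of these differences in the Id values was not tested.

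Over both comparisons with P28, the Id genes thus had 6 of 8 probe sets called higher over P12 (median 0.94) and 7 of 8 over P1 (median 1.62). Of all probe sets 13.5% and 17.6% were called higher, with a median of -0.05 in each comparison. Endothelial genes were higher on the same arrays: Kdr, a receptor for vascular endothelial growth factor, averaged 9.25 ± 0.51 at P28 against 7.61 ± 0.15 at P12 (log2 change 1.64 ± 0.22, adjusted p = 0.000111), and Tek, the angiopoietin receptor, 8.75 ± 0.35 against 7.18 ± 0.42 (1.58 ± 0.25, adjusted p = 0.000328), while Egfl7 gave 0.21 (adjusted p = 0.537). Among the P28 arrays the endothelial sum was highest on replicate 2 (12.35) and lowest on replicate 1 (11.68). Of the 7 Id probe sets that were not dim, replicate 2 was the highest P28 array in 1 and the lowest in 3. Replicate 1 was the lowest in 4 and replicate 3 the highest in 6. These are probe sets of only 4 genes on 3 arrays, and no conclusion was drawn from their order. How much of the Id rise lay in other GFP-sorted cells was not tested.

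The promoters of Id2, Id3 and Id4 are shown because these genes rose together. BMP-responsive elements of Id genes are also known farther upstream, outside these windows. The sequences are from RefSeq (GRCm38.p6) over the same window, 5′ to 3′, with GGCGCC, the GC-rich Smad element, and GTCT on either strand in capitals. Id2 lies at chr12:25096043-25096342 on the minus strand, Id3 at chr4:136143572-136143871 on the plus strand and Id4 at chr13:48260866-48261165 on the plus strand.
Id2: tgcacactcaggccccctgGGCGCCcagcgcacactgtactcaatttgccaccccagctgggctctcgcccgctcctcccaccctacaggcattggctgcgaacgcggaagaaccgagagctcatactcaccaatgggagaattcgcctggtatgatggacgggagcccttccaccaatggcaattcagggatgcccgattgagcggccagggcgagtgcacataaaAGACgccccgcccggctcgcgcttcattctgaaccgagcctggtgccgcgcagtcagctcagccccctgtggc
Id3: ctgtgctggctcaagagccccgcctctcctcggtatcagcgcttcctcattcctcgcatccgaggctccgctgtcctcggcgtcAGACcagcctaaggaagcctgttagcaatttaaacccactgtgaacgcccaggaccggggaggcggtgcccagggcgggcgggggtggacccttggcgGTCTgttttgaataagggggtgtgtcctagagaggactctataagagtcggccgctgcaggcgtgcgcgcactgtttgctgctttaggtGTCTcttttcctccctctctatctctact
Id4: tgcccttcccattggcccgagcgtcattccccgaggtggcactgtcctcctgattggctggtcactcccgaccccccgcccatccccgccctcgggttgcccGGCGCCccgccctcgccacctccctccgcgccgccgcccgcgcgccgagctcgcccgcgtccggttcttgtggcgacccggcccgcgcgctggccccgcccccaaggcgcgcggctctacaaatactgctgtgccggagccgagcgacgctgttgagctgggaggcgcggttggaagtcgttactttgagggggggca
GGCGCC stood once in Id2, beginning 231 bases before the start, and once in Id4, beginning 148 bases before it, and was not in the Id3 window. GTCT was found at 1 place in Id2, at 3 in Id3 and at 0 in Id4. CCAAT on either strand, the box read by the factor NF-Y, was at 3 places in Id2 and 2 in Id4, and 37.9% of all promoters hold it. TATAA was found in Id3 alone of these, beginning 29 bases before the start, and 25.5% of promoters hold it. Among the receptors, Bmpr1a and Bmpr2 held GGCGCC once each, and Bmp4 held GTCT at 2 places and no GGCGCC. The E-box CANNTG was at 1 place in Id2, 2 in Bmp6 and 3 in Bmp4, and 72.1% of promoters hold it. The windows that hold a motif include those of ligands and Id genes and those of the receptors, whose probe sets disagreed. The part of these letters in the levels was not tested.

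The rest of the pathway was read from 6 lists with 1 probe set per gene, the one with the highest mean. In P28 against P12, where 15.5% of all 18193 genes were called higher and 15.4% lower, 0 of 7 other BMP and GDF ligands passed, 4 of 11 further receptors and co-receptors rose and 1 fell, and 6 of 17 extracellular antagonists and modulators rose and 1 fell. Of these ligands, Bmp8a, Bmp10, Bmp15 and Gdf5 were dim at every age, so changes in them could hardly be measured. Of the 16 Smads and intracellular regulators 6 rose and 2 (Smad5 and Map3k7) fell, of 12 other BMP targets 1 rose and 4 fell, and of 9 helix-loop-helix partners of Id proteins 1 rose and 1 fell. In P28 against P1 (19.9% and 16.3% of genes called), the ligands had 0 higher and 1 lower, the receptors 4 and 2 (Acvr2a and Neo1), the antagonists 6 and 1, the intracellular regulators 6 and 0, the targets 1 and 2 (Dlx3 and Bex1) and the partners 1 and 2 (Tcf12 and Tcf4). The Tcf12 and Tcf4 calls were lost with the Gapdh covariate (-0.31 and -0.09, adjusted p = 0.178 and 0.729). That of Tcf4 was also lost without P1 replicate 1 or 2 or P28 replicate 2 or 3. In P12 against P1 (3.94% and 1.85% called), 2 antagonists and modulators (Chrdl2 and Twsg1) rose and 1 (Fst) fell, 1 intracellular regulator (Pmepa1) rose, 1 target (Bex1) fell and 1 partner (Myog) rose, and 0 of the ligands and receptors passed. Of these, Twsg1 (0.61 ± 0.16, adjusted p = 0.0394) lost its call without any 1 P12 array or one of P1 replicates 2, 3 and 4, Bex1 (-0.84 ± 0.21, adjusted p = 0.0349) without any 1 P1 array or one of P12 replicates 1, 3 and 4, and Fst (-0.74 ± 0.19, adjusted p = 0.0361) without one of P1 replicates 1, 2 and 4 or P12 replicates 1 and 4, with the replicate block and within replicates 3 and 4. Further quantile normalisation gave 5 intracellular regulators lower in P28 against P1 (Smad5 at -0.56, adjusted p = 0.00147) and 4 receptors, and in P28 against P12 it gave 2 receptors and 3 partners lower. The median log2 change in P28 against P12 was 0.41 for the antagonists, 0.01 for the intracellular regulators, -0.11 for the targets, -0.07 for the ligands and for the partners, and -0.20 for the receptors, against -0.03 over all genes. The ligand median includes the dim ligands.

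Several inhibitors and modulators of BMP, TGF-β or activin signalling rose with the Id genes. Chrdl2, a secreted chordin-like antagonist, averaged 8.28 ± 0.22 at P1, 9.03 ± 0.23 at P12 and 11.73 ± 0.08 at P28, and rose by 2.70 ± 0.15 over P12 (adjusted p = 7.95e-08). Bambi, a receptor without a kinase that damps signalling, averaged 6.68 ± 0.14, 7.08 ± 0.40 and 9.16 ± 0.11 and rose by 2.09 ± 0.18 (adjusted p = 3.36e-06). Smad7, an inhibitory Smad induced by BMP and TGF-β, rose by 0.93 ± 0.15 (adjusted p = 0.000432), and Smad6, the inhibitory Smad more specific for BMP, gave 0.07 ± 0.20 (adjusted p = 0.823). Pmepa1, an inhibitor of TGF-β signalling, rose at each step, by 1.09 ± 0.15 in P12 against P1 (adjusted p = 0.00149) and by 1.10 ± 0.17 in P28 against P12 (adjusted p = 0.000258). Also higher at P28 against P12 were Fstl3, which binds activin (1.61 ± 0.16), Bmper, which binds BMPs (6.39 at P28 against a dim 4.58 at P12), Twsg1, which binds BMP with chordin (0.72 ± 0.17), and Tob1, which restrains Smads (1.19 ± 0.22), with adjusted p between 9.95e-06 and 0.00557. The 1 antagonist called lower was Nog, which encodes noggin and averaged 4.10 ± 0.27 at P28, 4.97 ± 0.21 at P12 and 4.93 at P1 (adjusted p = 0.00141 over P12), at or near the dim level of 4.96 at every age, so no size is given for its change.

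Receptors and co-receptors that rose in P28 against P12 were Hjv, the BMP co-receptor hemojuvelin (2.24 ± 0.23, adjusted p = 1.26e-05), Eng, a co-receptor of endothelial cells (2.17 ± 0.17, adjusted p = 1.37e-06), Tgfbr3 or betaglycan (1.66 ± 0.20, adjusted p = 4.43e-05) and Acvrl1, the type I receptor of endothelial cells (1.21 ± 0.16, adjusted p = 0.000115). Eng belongs to the endothelial list as well. Neo1, a receptor for the RGM co-receptors, fell by 0.62 (SE 0.15, adjusted p = 0.00790), and with the Gapdh covariate 0 of these receptors were called lower. None of the Smads that carry the signal was called higher: Smad1 gave -0.08 ± 0.13 (adjusted p = 0.689), Smad4 gave -0.38 ± 0.18 (adjusted p = 0.125), Smad9 was dim at every age, and Smad5 fell by 0.52 (SE 0.14, adjusted p = 0.0137), a call lost without P28 replicate 2 and with the Gapdh covariate. Among the other ligands, Bmp7 fell in P28 against P1 by 0.44 (SE 0.14, adjusted p = 0.0227), a call lost with the Gapdh covariate and without P1 replicate 1 or 4 or P28 replicate 1 or 3 (-0.43 to -0.20).

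Among the 12 other targets of BMP, Atoh8 was the only one that rose, by 0.61 ± 0.16 in P28 against P12 (adjusted p = 0.00975). Called lower in that comparison were Bex1, Tbx3, Tbx2 and Dlx3: Bex1 averaged 9.11 ± 0.40 at P28 against 10.20 ± 0.41 at P12 (log2 change -1.08 ± 0.23, adjusted p = 0.00265), Dlx3 averaged a dim 4.94 at P28 against 5.59 at P12 (adjusted p = 0.00732), and Tbx2 was dim at every age (adjusted p = 0.0332), a call lost without any 1 P28 array or P12 replicate 1 or 2. With the Gapdh covariate 0 of these 4 passed. Msx1 gave 0.20, Hey1 0.18 and Hes1 -0.02, and none of these 3 passed. Of the proteins that pair with Id proteins, Tcf12 fell in P28 against P12 by 0.74 (SE 0.14, adjusted p = 0.00128), Tcf3 gave -0.16 (adjusted p = 0.414), and Myf6, a late myogenic factor, rose by 1.56 ± 0.26 (adjusted p = 0.000481). Myod1 gave -0.07 ± 0.28 (adjusted p = 0.881) and Myf5 0.28 ± 0.18 (adjusted p = 0.279). Myog, the differentiation factor, rose in P12 against P1 by 0.90 ± 0.20 (adjusted p = 0.0206) and gave -0.52 ± 0.21 in P28 against P12 (adjusted p = 0.0832). That P12 against P1 call was lost on leaving out P1 replicates 3 or 4, on leaving out P12 replicates 1 or 4, and within replicates 1 and 2 (0.67 to 0.91).

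The genes nearest in profile to each member were found by the root mean square difference of centred log2 values over the 11 arrays, among 15737 genes, and shared courses across age only as a description. Nearest to Id3, whose values spanned 2.47, were Clu (0.172), Osgin1 (0.196) and Mgarp (0.200). For Id2 they were Larp1b (0.166), Ifi47 and Rnf11 (0.179 each), and for Id4 Slc6a6 (0.143), Smcr8 (0.145) and Esm1 (0.153), which was dim at every age. Id1 had Id3 (0.216), Sqstm1 (0.256) and Got1 (0.272). Bmp6, with a span of 2.78, was followed by Mgst1 (0.212), Aox1 (0.232) and Axl (0.272), each lowest at P12: Mgst1 averaged 7.84 at P1, 6.81 at P12 and 8.74 at P28. Bmp5, with a span of 3.01, had Thbs4 (0.168), Ang (0.191) and Qpct (0.232). Bmp2 had Enpp4 (0.160), Trim36 (0.189) and Cpeb2 (0.190), and Bmp4, whose span was 1.09, had Atraid (0.0930), Mpst (0.0995) and Slc12a4 (0.111). The receptors had close neighbours among their small changes: Nfx1 (0.0823), Cdc40 (0.0830) and Hs6st1 (0.0925) for Bmpr1a, and Ints2 (0.0917), Ubr1 (0.101) and Gab1 (0.107) for Bmpr2. Among the members, the nearest pairs were Bmpr1a and Bmpr2 (0.171), Id1 and Id3 (0.216) and Bmp2 and Id4 (0.244), while Bmp5 and Bmp6 differed by 0.489. Each gene was represented by its brightest probe set, so the receptor profiles are those of Bmpr1a 1425492_at and Bmpr2 1434310_at alone and do not hold for the probe sets that disagreed with them.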

How the data were processed

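The authors deposited log2 expression values per probe set of 11 arrays, and the submitters' processing notes list affy, RMA and Affymetrix Expression Console and give no version, role or sequence of use. Whether P28 was normalised with the other arrays, and the genome build, are not given in the sources used here. Lowest values were -0.78 to 0.48 on P1 and P12 arrays and 1.65 to 2.09 on P28 arrays. Groups follow the ages given in the titles, and the arrays' number limits the precision. The 64 control probe sets were left out. Of the rest, 34945 carried 1 symbol, for 18193 genes.

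The deposited log2 values were tested without further transformation, with limma 3.58.1 in R 4.3.3, on group means over all arrays with eBayes (8 residual, 5.82 prior degrees of freedom), two-sided, adjusted by the Benjamini-Hochberg method over 45037 probe sets, which was tested on simulated data. Errors are SD over arrays for levels and SE of the fit for changes. Marker sums are of values taken out of log2. Alternatives were further median centring or quantile normalisation, trend and robust variance, array weights, only the ages compared, other feature filters, 1 probe set per gene, the replicate number or array set as a block, the Gapdh covariate and leaving out each array. Within array sets the spread was pooled over 5 groups. The same alternatives were run on the pathway and marker lists, a step chosen after seeing the data.

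Correlations of deviations from the group means between same-numbered arrays were 0.143 to 0.311 for P12 with P1. These numbers were taken as pairs, from the data, only in the replicate block, and the tests behind the calls used no pairing. The highest correlations with another number were 0.140 to 0.247 and for replicate 1 exceeded its own, so they do not single out pairs. P28 gave -0.122 to 0.0931 and was not taken as paired. The replicate block nevertheless held the P28 arrays by their numbers.

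The members, lists and the array-set split were chosen with earlier results of these data known. Named are all member probe sets, in each pathway list up to 4 genes with the largest passing changes, the 3 genes nearest in profile to each member, bright genes of cell type lists, and Pax7, Myf5, Myod1, Mki67, Ccnd1 and Myog. Pdgfra, Xist, Nog, Smad1, Smad4, Smad5, Smad6, Smad9, Tbx3, Msx1, Hey1, Hes1, Tcf3, Neo1, Fst, Map3k7 and Acvr2a were named after their values were seen. Bmp8a, Bmp10, Bmp15 and Gdf5 were named because they were dim. Promoter sequences were found in the RefSeq table for 8 of the 10 members.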

Additional observations from a re-analysis of the deposited data

Results flagged for a closer look

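In 3 of 46 groups of 4 arrays tested, 1 array stood far from the other 3 for a member probe set, and chance does this in about 1 group in 20. Bmpr1a 1425491_at read 8.90 on P1 replicate 1, against 8.44 to 8.47 on the other P1 arrays. Bmpr2 1419616_at read 8.30 on P12 replicate 4, against 7.71 to 7.76 on the other P12 arrays. Id3 1416630_at read 10.57 on P1 replicate 1, against 9.77 to 9.90 on the other P1 arrays.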

How the results depend on the processing

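Of 34 calls on the 23 probe sets in 3 comparisons, 16 were kept under every alternative run and 18 were lost under at least 1. These alternatives reversed 0 called values. The 16 were Bmp5 (1455851_at and 1421282_at), Bmp6, Id1 and Id3 in P28 against P12, and in P28 against P1 the same probe sets with Bmp2, Bmp4, Id2 (1435176_a_at and 1422537_a_at) and Id4 (1423260_at and 1423259_at). A further 9 values passed under at least 1 alternative only. In P12 against P1, 1 probe set was called higher and 1 lower. Higher were 2 with median centring, trend and robust variance, only those ages, probe sets with 1 symbol, no dim probe sets, or within replicates 3 and 4. It was 4 with array weights or the array set as a block, 3 with the Gapdh covariate and 0 within replicates 1 and 2. Lower were 2 with the array set as a block and 0 within replicates 3 and 4. With the Gapdh covariate 0 were lower in either comparison with P28, against 3, and 8 and 12 were higher over P12 and P1. Leaving out 1 array gave 0 to 5 higher and 1 to 1 lower in P12 against P1, 8 to 12 and 2 to 3 in P28 against P12, and 12 to 15 and 1 to 3 in P28 against P1. The 5 came without P1 replicate 1, the only P1 array with a high Xist level. There were 3 without P12 replicate 3, 2 without P28 replicate 1 or 3, and 0 without P12 replicate 2 or one of P1 replicates 2, 3 and 4. Without P28 replicate 3 the rises over P12 numbered 8. Without P1 replicate 2 the falls in P28 against P1 numbered 1. The replicate block, by which P12 and P1 were paired, left 1 higher and 1 lower in P12 against P1 and 12 and 3 in P28 against P12; in P28 against P1 it added the dim Bmpr2 1441652_at (-0.35, adjusted p = 0.0434). The causes were not tested.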
